A study of Homo sapiens with 6 samples.

Results

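The 47 genes described here encode the proteins that license replication origins and run the replication fork. They are the 6 subunits of the origin recognition complex, the helicase loading factors, the MCM proteins, the helicase activators, the replicative polymerases, the sliding clamp with its loader, RPA, LIG1 and FEN1. They were taken by name, whatever their measured values, from 19785 protein-coding genes. For each gene the measurement was whether a Myc chromatin immunoprecipitation sequencing (ChIP-seq) library had a promoter peak, meaning a peak with its summit at most 1 kb away from any transcription start site (TSS) annotated for the gene, and how strong that peak was.

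Origins are licensed in G1 phase, when the origin recognition complex, CDC6 and CDT1 load the ring-shaped MCM2 to MCM7 helicase onto DNA. In S phase the DBF4-dependent kinase CDC7, together with cyclin-dependent kinase, lets CDC45 and the GINS complex join and activate that helicase. Primase and polymerase alpha then lay down primers, polymerases delta and epsilon extend them on the PCNA clamp, and FEN1 and LIG1 join the lagging strand. Many of these genes are classical targets of E2F factors, which switch them on as cells enter S phase. Myc, bound to its partner Max, recognises the E-box CACGTG and also occupies many active promoters that lack it.

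The cells were MDA-MB-231, an established human triple-negative breast cancer line. Parental 231 cells were set against TKO cells, the same line after CRISPR-Cas9 knockout of TXNIP, an arrestin family protein that restrains glucose uptake. Both were grown in the same medium with fetal bovine serum and precipitated with the same Myc antibody, and each gave 2 Myc libraries, which the study calls biological replicates. The knockout cells were grown up from single cells as clones, and whether the TKO cells used here were 1 clone or several is not given in the sources used here, so an effect of the knockout and of clonal selection cannot be told apart. The comparison asks where Myc sits at the replication genes with and without TXNIP.

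The 4 peak lists differed greatly in length, and this touches every count below. Parental 1 and parental 2 held 3720 and 5719 peaks, and TKO 1 and TKO 2 held 27213 and 25887. The longer lists had the lower recovered depth, which was 26.4 and 22.2 M reads in the parental libraries and 19.9 and 13.0 M in the TKO libraries. The length to which reads were extended did move with the groups, at 140 and 151 bp in parental and 182 and 201 bp in TKO libraries, and its part in the results was not tested.

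E-boxes lay within 50 bp of the summit at few of these promoters, and 3 of them, at MCM8, PRIM2 and POLD2, did so in all 4 libraries. They are shown because they are the only members whose summit sat at an E-box in every library. MCM8 is a helicase related to MCM2 to MCM7 that acts in homologous recombination, PRIM2 is the large subunit of primase, and POLD2 is an accessory subunit of polymerase delta. The capitals mark CACGTG, and the sequences are those of the GRCh37 reference, read on the strand of the gene, at chr20:5931158-5931187 on the plus strand, chr6:57178710-57178795 on the plus strand and chr7:44162843-44162872 on the minus strand.
MCM8: cggcaccgccccCACGTGttgcacgccgct
PRIM2: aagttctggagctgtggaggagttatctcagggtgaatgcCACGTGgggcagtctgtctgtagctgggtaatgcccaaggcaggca
POLD2: tcactcgttagaCACGTGtgcggagcctgt
Counted along the gene, the E-box was centred at −125 bp from the nearest TSS in MCM8, at 103 bp in POLD2, in untranslated sequence, and at −850 bp in PRIM2.

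An E2F motif lay at the summit of other members. It was searched as TTTCCCGC, TTTCGCGC, TTTGCCGC or TTTGGCGC on either strand. Shown are MCM3, a subunit of the helicase ring, and GINS3, a subunit of the GINS complex, where the match was within 50 bp of the summit in 3 libraries, and MCM2, where both motifs stood side by side. In these lines capitals mark every E2F match and, in MCM2, the E-box. They lie at chr6:52149526-52149555 on the minus strand, chr16:58426359-58426388 on the plus strand and chr3:127317203-127317282 on the plus strand.
MCM3: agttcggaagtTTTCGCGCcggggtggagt
GINS3: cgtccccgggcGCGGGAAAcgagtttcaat
MCM2: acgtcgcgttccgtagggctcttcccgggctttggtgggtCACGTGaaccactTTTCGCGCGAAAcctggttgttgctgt
The E2F matches of MCM3 and GINS3 were centred at −1 bp from a TSS. In MCM2 the E-box was centred at −8 bp and the E2F match at 6 bp from the TSS, where TTTCGCGC occurs on both strands in overlap.

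Most replication genes had a Myc promoter peak in TKO cells and most had none in parental cells. Of the 47 genes, 13 in parental 1, 13 in parental 2, 44 in TKO 1 and 41 in TKO 2 had one. Among all protein-coding genes the shares were 12.2% and 12.9% in the parental and 49.1% and 49.7% in the TKO libraries, against 27.7%, 27.7%, 93.6% and 87.2% of the replication genes. The mean number of replication genes was 13 ± 0 in parental and 42.5 ± 2.12 in TKO libraries (SD, n = 2 each), a ratio of 3.27, and the same ratio over all genes was 3.94. The groups did not overlap, and the exact two-sided permutation test gave p = 0.333, the smallest p that 2 libraries against 2 can give.

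That ratio was also taken at equal list lengths, a cut that gives every library the same number of peaks. Such a cut removes any gain in peaks across the genome, so it cannot show whether a gain was present. When each list was limited to its 3720 peaks of lowest p, 13, 11, 12 and 9 replication genes kept a promoter peak in parental 1, parental 2, TKO 1 and TKO 2, beside 2418, 1794, 2635 and 2681 of all genes. The ratio of TKO to parental was then 0.875 (exact permutation p = 0.667). Over all genes the shares were 12.2%, 9.07%, 13.3% and 13.6%, so they stayed higher in both TKO libraries than in both parental libraries. Among these strongest peaks GMNN, which encodes the CDT1 inhibitor geminin, was the 1 replication gene bound in both TKO and neither parental library.

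**Figure D1:**
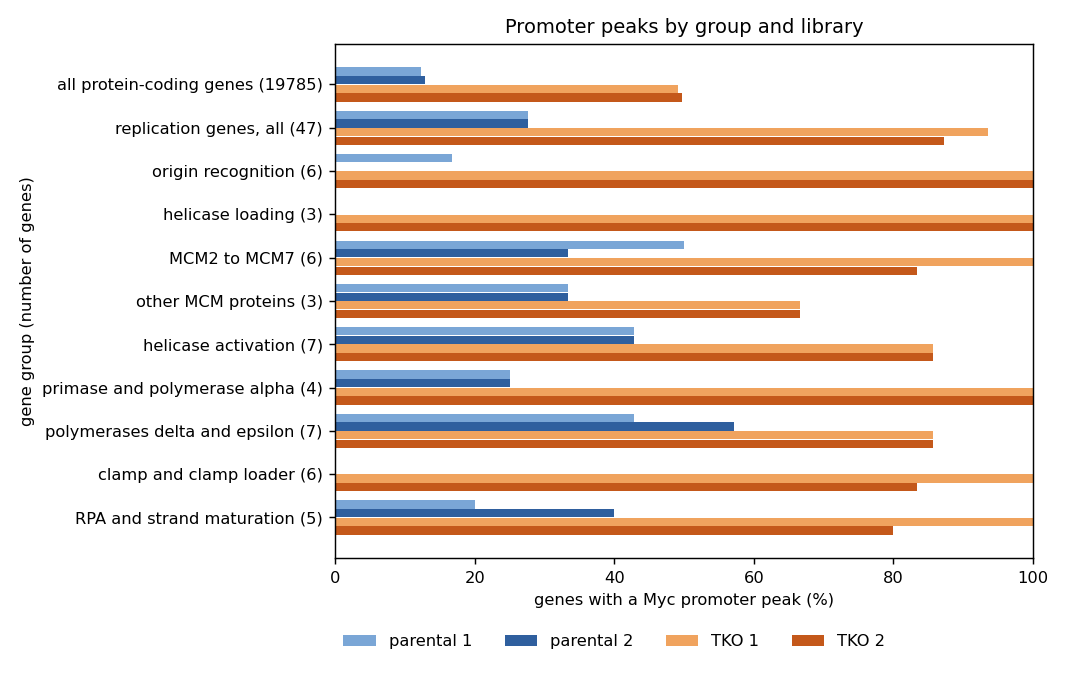
Percentage of genes with a Myc promoter peak (horizontal axis) in each of the 4 libraries, for all 19785 protein-coding genes, the 47 replication genes and their 9 functional groups, with the number of genes in brackets. Bars are single libraries, so there are no error bars. No gene of helicase loading or of the clamp and its loader had a peak in a parental library, while all 3 and at least 5 of 6 had one in each TKO library.

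By library, the 47 genes fell into a few classes. There were 10 bound in all 4 libraries, or 21.3%, beside 9.32% of all genes. Another 6, or 12.8%, were bound in both TKO and 1 parental library, beside 6.16% of all genes. A further 25 genes, or 53.2%, had a peak in both TKO libraries but in neither parental one, beside 29.8% of all genes. Both parental libraries shared 10 genes, or 21.3%, beside 9.36% of all genes, and both TKO libraries shared 41, or 87.2%, beside 45.2%. No gene was bound in a parental library without both TKO libraries. That pattern was rare among all genes too, at 0.207% with 1 TKO library and 0.0657% with none. Only 3 genes, or 6.38%, had no promoter peak in any library, beside 46.3% of all genes.

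Bound genes were also counted by role. Of all protein-coding genes, 12.2%, 12.9%, 49.1% and 49.7% were bound in parental 1, parental 2, TKO 1 and TKO 2. Of the 6 origin recognition genes, 1, 0, 6 and 6 were bound in parental 1, parental 2, TKO 1 and TKO 2. ORC5 was the 1 bound in parental cells. None of the loading factors CDC6, CDT1 and GMNN was bound in a parental library, and all 3 were in both TKO libraries. PCNA and the clamp loader subunits RFC1 to RFC5 likewise had 0 of 6 in both parental libraries, with 6 and 5 in TKO 1 and TKO 2. At the other end stood the delta and epsilon polymerase genes, where 3, 4, 6 and 6 of 7 were bound. Counts for MCM2 to MCM7 were 3, 2, 6 and 5 of 6. Helicase activation genes gave 3, 3, 6 and 6 of 7. Primase and polymerase alpha had 1, 1, 4 and 4 of 4. For MCM8, MCM9 and MCM10 the counts were 1, 1, 2 and 2 of 3, and for RPA, LIG1 and FEN1 they were 1, 2, 5 and 4 of 5. These groups hold 3 to 7 genes each, and no difference between them was tested. At the parental shares of all genes, a group this small can hold no bound gene without differing from all genes.

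**Figure D2:**
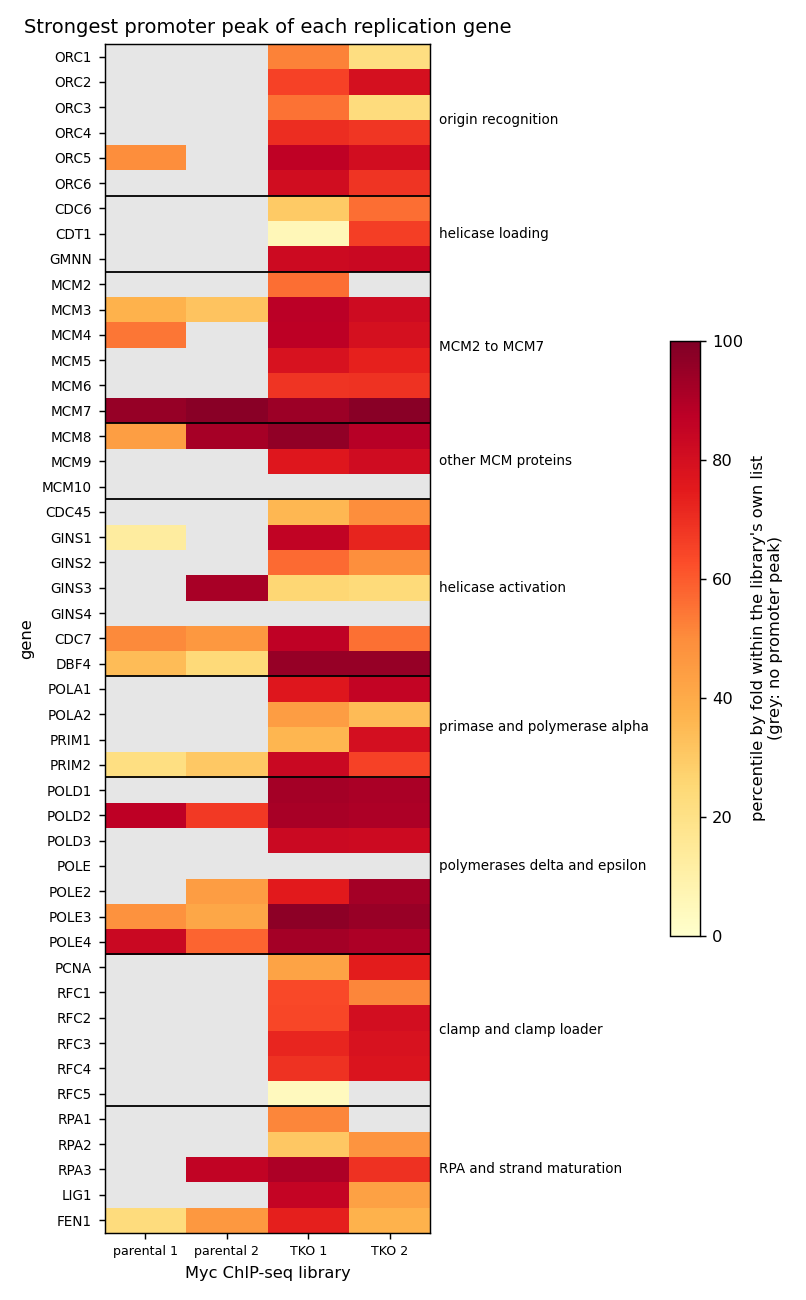
Strength of the strongest promoter peak of each of the 47 genes (rows, by role) in each library (columns), as the percentile of its fold within the library's own peak list. Colour runs from 0 to 100 and grey means no promoter peak. Grey fills most of the 2 parental columns, MCM7 is dark in all 4 columns, and MCM10, GINS4 and POLE are grey throughout.

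The 10 genes bound in all 4 libraries came from several roles. They were MCM3 and MCM7 of the helicase ring, MCM8, the kinase pair CDC7 and DBF4, PRIM2, the polymerase subunits POLD2, POLE3 and POLE4, and the flap endonuclease FEN1. Their strength was compared as summit reads divided by the genome background of the library, here called the scaled summit. The summit reads were solved from the fold and p-value of each peak.

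POLE3, a histone-fold subunit of polymerase epsilon, had the highest summits. Its summit was 41.6 and 26.6 times the genome background in the parental libraries and 83.3 and 85.5 times in the TKO libraries. The means were 34.1 ± 10.6 and 84.4 ± 1.57 (SD, n = 2), a ratio of 2.54. In TKO 1 the peak spanned chr9:116172315-116173440 on hg19, and the TSS of C9orf43 on the opposite strand lies within 1 kb, so a summit there cannot be assigned to 1 gene. The 4 POLE3 summits spanned 292 bp, so the values may not describe 1 site. By fold, POLE3 stood at the 48.4 and 41.1 percentile of the parental lists and at the 97.1 and 94.7 percentile of the TKO lists.

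DBF4, the regulatory subunit of CDC7 kinase, had the next largest ratio. Its background-scaled summits were 16.1, 12.9, 29.8 and 33.0 in parental 1, parental 2, TKO 1 and TKO 2, a ratio of 2.18. The authors' fold differed more, with 4.86 and 4.24 against 12.8 and 12.7. Local background relative to the genome was 0.650 times as high in TKO as in parental libraries at this promoter. Each cell type had a single input sample, so local background is not replicated within a group. DBF4 shares its promoter with SLC25A40. The kinase itself, CDC7, had 24.1, 21.0, 35.7 and 30.9, a ratio of 1.48.

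MCM3 and MCM7 both had higher summits in TKO libraries but stood apart by fold. MCM3 had scaled summits of 27.0, 25.0, 56.5 and 47.4, a ratio of 1.99, at the 37.2, 32.0, 87.5 and 81.8 percentile by fold. MCM7 had 29.9, 30.6, 43.9 and 59.8, a ratio of 1.69, and stood high in every list, at the 94.9, 97.7, 93.9 and 98.0 percentile. Its TKO 2 peak covered chr7:99697988-99698489 with the summit in untranslated sequence 149 bp downstream of a TSS, and AP4M1 starts within 1 kb on the other strand. In all 4 libraries the MCM7 summits lay within 94 bp of each other and those of MCM3 within 75 bp.

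The 3 genes with an E-box at the summit in every library differed in their ratios. MCM8 had scaled summits of 21.9, 29.8, 52.8 and 40.2, a ratio of 1.80, with the 4 summits within 34 bp. POLD2 had 28.5, 23.4, 45.4 and 42.2, a ratio of 1.70. PRIM2 had 32.8, 35.5, 50.6 and 34.0, a ratio of 1.22. It was the only one of the 10 genes whose parental and TKO scaled summits overlapped. The PRIM2 folds of 4.30, 4.49, 8.35 and 6.51 did not overlap. Its local background was 7.12 times the genome background in parental and 4.87 times in TKO libraries, the highest parental value of the 10. All 4 PRIM2 summits lay between −857 and −897 bp from a TSS, at the E-box printed above, and in both TKO libraries PRIM2 also had other promoter peaks, the nearest 32 and 40 bp from a TSS.

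POLE4, the histone-fold partner of POLE3, had scaled summits of 26.3, 14.5, 40.2 and 36.1, a ratio of 1.95. Its parental 2 summit lay on the other side of the TSS from the remaining 3, so the 4 summits spanned 450 bp. FEN1, which removes the flaps of Okazaki fragments, had 19.0, 21.0, 29.0 and 31.9, a ratio of 1.53.

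In 9 of these 10 genes both TKO summits exceeded both parental summits, which was also true of 96.9% of all 1843 genes bound in all 4 libraries. The median ratio was 1.75 for the 10 genes and 1.94 for the others. With summits divided by recovered depth alone, which leaves extension length in, the median of the 10 genes was 2.30. Taken library against library, the medians were 1.57 and 1.86 for TKO 1 over parental 1 and parental 2, and 1.72 and 1.85 for TKO 2 over the same. By both counts the replication genes stood no higher than the other genes bound throughout, and the difference was not tested. Local background rose at some of these promoters and fell at others, with a median TKO to parental ratio of 1.06, from 0.650 at DBF4 to 1.43 at MCM7.

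**Figure D3:**
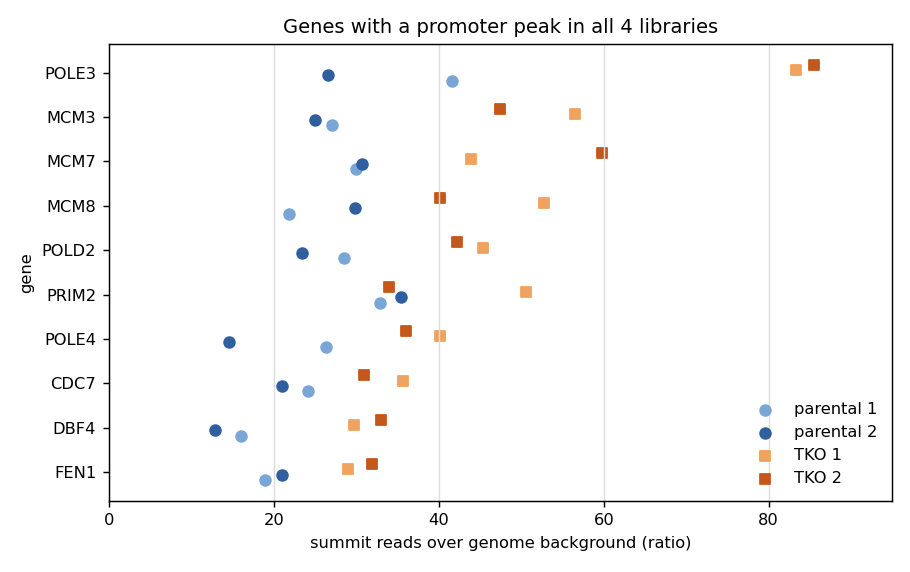
Summit reads divided by the genome background of the library (horizontal axis, a ratio) for the 10 replication genes with a promoter peak in all 4 libraries; circles are parental and squares TKO libraries, with single libraries shown and no error bars. POLE3 has the highest TKO values, at 83.3 and 85.5, and PRIM2 is the only gene whose groups overlap.

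Another 6 genes had a peak in both TKO libraries and 1 parental library. ORC5, MCM4 and GINS1 had their parental peak in parental 1, and GINS3, POLE2 and RPA3 in parental 2. ORC5 had scaled summits of 14.6 in parental 1 and of 23.8 and 24.7 in TKO 1 and TKO 2. For MCM4, a subunit of the helicase ring, they were 12.4, 28.3 and 16.5, and the promoter is shared with PRKDC. The TKO 2 value of MCM4 comes from a peak at −864 bp from a TSS, whereas the others lay at −147 and −78 bp, so it does not describe the same site. GINS1 had 15.3, 39.4 and 34.0, with its summits at 251, 12 and 27 bp. ORC5 and GINS1 had higher summits in both TKO libraries than in parental 1.

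The 3 genes with a peak in parental 2 lay closer to their TKO values. GINS3 had 16.1 in parental 2 against 20.8 and 18.5 in TKO 1 and TKO 2, with the E2F match printed above at each summit. By fold it stood at the 91.7 percentile of the parental 2 list and at only the 25.8 and 23.8 percentile of the TKO lists. POLE2, a polymerase epsilon subunit, had 23.4, 30.5 and 34.0. RPA3, the small subunit of the single-strand binding protein RPA, had 29.0 against 25.3 and 26.8. Its strongest peak in parental 2 and TKO 1 lay near an alternative upstream TSS (chr7:7758963-7759257 in TKO 1), and in TKO 2 at the other TSS (chr7:7680265-7680771), so these values do not describe 1 site.

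The 25 genes bound in both TKO and neither parental library included most of the licensing factors. By mean percentile in the TKO lists the strongest was POLD1, the catalytic subunit of polymerase delta, with folds of 11.0 and 10.4 in TKO 1 and TKO 2, at the 92.4 and 91.0 percentile. GMNN followed, with folds of 8.14 and 8.47. POLD3, another polymerase delta subunit, had 8.27 and 8.25. All 3 genes lay above the 75 percentile of both TKO lists.

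POLA1, the catalytic subunit of polymerase alpha, had folds of 7.31 and 8.83. The MCM8 partner MCM9 had 7.31 and 8.13. For MCM5 they were 7.60 and 7.15, from 20 and 16 summit reads. Its strongest summits lay at −250 and 394 bp from a TSS, so these values may not describe 1 site. RFC3 and RFC4, subunits of the clamp loader, had 6.86 and 7.75, and 6.57 and 7.64. The origin recognition genes ORC6 and ORC2 had 7.95 and 6.75, and 6.32 and 7.86. In ORC6 the strongest summits of the TKO libraries lay on opposite sides of a TSS, at −617 and 442 bp.

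Another 11 genes of the 25 were ORC1, ORC3, ORC4, CDC6, MCM6, POLA2, PRIM1, RFC1, RFC2, RPA2 and LIG1, with folds from 4.48 for ORC1 in TKO 2 to 8.67 for LIG1 in TKO 1.

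Some of the 25 rested on few reads or on scattered summits. CDC45, the helicase cofactor, had 11 summit reads in each TKO library, and GINS2 had 14 and 10. LIG1 had 25 in TKO 1 and 12 in TKO 2. CDT1 had folds of 3.31 and 6.58 at the 5.71 and 66.2 percentile, from summits at −270 and −971 bp from a TSS. PCNA, the sliding clamp, had its strongest TKO 1 peak at −846 bp from an alternative TSS (chr20:5108099-5108401), near CDS2, and its strongest TKO 2 peak at 34 bp from another (chr20:5099933-5100883). For the 25 genes the mean scaled summit over both TKO libraries ran from 9.76 to 37.8 with a median of 23.7.

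In 3 genes a promoter peak was called in TKO 1 and in no other library. A peak in 1 TKO library alone, whichever of them, was thus found in 6.38% of the 47 genes, beside 8.203% of all genes. MCM2, a subunit of the helicase ring, had a fold of 5.68 at the 55.9 percentile, at chr3:127317137-127317373, with the summit 2 bp downstream of a TSS and at the E-box and E2F match printed above. RFC5 had a fold of 3.20 at the 4.24 percentile. RPA1, the large RPA subunit, had a fold of 5.44 at the 51.4 percentile. In TKO 2 the nearest summit was 6317 bp from a TSS for MCM2, 44030 bp for RFC5 and 42354 bp for RPA1. TKO 2 was the library of least depth, though it had more genes with a promoter peak than TKO 1 (9843 against 9719). Whether depth bears on these 3 genes was not tested.

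MCM10, which acts in helicase activation, GINS4, the remaining GINS subunit, and POLE, the catalytic subunit of polymerase epsilon, had no promoter peak in any library. For MCM10 the nearest summit was 410461 and 410494 bp from a TSS in the parental and 49389 and 61723 bp in the TKO libraries. GINS4 had 299104, 299251, 48657 and 38160 bp. POLE had 200444, 200593, 23086 and 23301 bp. POLE lacked a peak where its partner subunits POLE2, POLE3 and POLE4 had one in both TKO libraries.

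How high the peaks of the replication genes ranked within a list depended on the length of the list. The median percentile by fold of the bound genes was 48.4 and 46.3 in the parental and 74.4 and 74.5 in the TKO libraries, beside 57.1, 56.8, 71.0 and 70.6 for the other bound genes. The mean was 47.4 ± 1.48 in parental and 74.4 ± 0.0517 in TKO (SD, n = 2; exact two-sided permutation p = 0.333, the smallest possible). With lists of 3720 peaks each the values were 48.4 and 24.6 in the parental and 42.7 and 36.3 in the TKO libraries, so the groups overlapped, beside 57.1, 57.0, 59.4 and 58.9 for the other bound genes. Median folds of the replication genes were 5.42, 5.01, 7.10 and 7.27, beside 5.77, 5.49, 6.78 and 6.91 for the other genes.

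By median, genes also bound in parental cells had the stronger TKO peaks in the deposited lists. The mean TKO percentile of the 10 genes bound in all 4 libraries ran from 55.4 to 95.9 with a median of 91.1. The 6 genes bound in 1 parental library ran from 24.8 to 83.7, with a median of 81.6. The 25 genes bound in neither ran from 35.9 to 91.7, with a median of 68.8. The ranges overlap, and the classes were not tested against each other.

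In TKO cells the peaks of these genes were wide and close to the TSS. The median width was 199 and 215 bp in the parental and 572 and 502 bp in the TKO libraries, beside 243, 241, 468 and 475 bp for the other genes. Summits within 100 bp of a TSS made up 52.3% and 51.2% of the bound replication genes in TKO 1 and TKO 2, beside 37.8% and 39.1% of the others. In the parental libraries they made up 30.8% and 38.5%, from 4 and 5 genes, beside 47.9% in both for the others. No replication gene had more than 1 promoter peak in a parental library, whereas 15 and 13 had in TKO 1 and TKO 2. Those were 34.1% and 31.7% of the bound genes, close to the 32.1% and 29.6% of the others.

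The share of bound genes with an E-box at the summit was lower in the TKO libraries, and its size changed with the length of the list. Within 50 bp of the summit, 4 of 13, 3 of 13, 4 of 44 and 4 of 41 bound replication genes had CACGTG in parental 1, parental 2, TKO 1 and TKO 2. These were 30.8% (95% Clopper-Pearson interval 9.09 to 61.4%), 23.1% (5.04 to 53.8%), 9.09% (2.53 to 21.7%) and 9.76% (2.72 to 23.1%), beside 21.5%, 18.4%, 9.14% and 8.09% of the other bound genes. The intervals cover counting error only. The mean share was 26.9 ± 5.44% in parental and 9.42 ± 0.470% in TKO (SD, n = 2; exact two-sided permutation p = 0.333, the smallest possible). MCM8, PRIM2 and POLD2 were in all 4 counts, with POLE3 in parental 1, MCM2 in TKO 1 and FEN1 in TKO 2, so the number of genes with an E-box changed by at most 1 while the number bound went from 13 to over 40. With lists of 3720 peaks each the shares were 30.8%, 27.3%, 25.0% and 22.2%, beside 21.5%, 20.7%, 18.6% and 17.1% of the other bound genes. Both TKO shares thus stayed below both parental shares in either set of genes, and what made them differ was not tested. In none of the 4 libraries as deposited did the interval for the replication genes leave out the share of the other genes.

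E2F matches at the summit made up a larger share than at the other genes in each library. They were found at 2 of 13, 1 of 13, 6 of 44 and 3 of 41 bound replication genes, or 15.4%, 7.69%, 13.6% (5.17 to 27.4%) and 7.32% (1.54 to 19.9%). The share among the other bound genes was between 1.73% and 2.29% in the 4 libraries. In TKO 1 the genes were ORC3, CDC6, MCM2, MCM3, GINS3 and RFC3, and in TKO 2 they were MCM3, GINS2 and GINS3. The interval left out the share of the other genes in TKO 1 and did not in TKO 2. These intervals too cover counting error only, and genes are not replicates, so the difference was not tested. CACGCG was at 0, 2, 3 and 3 summits, or 0%, 15.4%, 6.82% and 7.32%. Among the other bound genes it was at 15.4%, 13.7%, 10.1% and 9.51%. CCAAT was at 0, 2, 3 and 2, or 0%, 15.4%, 6.82% and 4.88%, beside 7.94%, 8.36%, 8.72% and 8.07%.

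The E2F motif was more frequent in the promoters themselves, a window of greater length than that around a summit. In RefSeq promoters of GRCh38.p14, from 250 bp before to 50 bp after the gene start, 41 of the 47 genes had an entry, and the 6 without were MCM4, MCM5, GINS4, POLD3, RPA2 and RPA3. An E2F match was in 19 of 41, or 46.3%, beside 4.48% of 15281 promoters of all matched genes. CACGTG was in 6, or 14.6%, beside 8.91%, namely FEN1, GMNN, MCM2, MCM7, MCM8 and RPA1. CCAAT was in 56.1% beside 36.6% and CACGCG in 31.7% beside 15.0%.

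Myc peaks were counted in promoters with and without each motif. Of the 19 genes with it, 4 were bound in both parental and 17 in both TKO libraries, and of the 22 without it, 6 and 19. Of the 6 genes with CACGTG in the promoter, 3 were bound in both parental and 4 in both TKO libraries, and of the 35 without it, 7 and 32. This promoter window is not the window around the summits. PRIM2 and POLD2, with CACGTG at the summit in all 4 libraries, and POLE3, with it in parental 1, count as without. MCM7 counts as with, although no MCM7 summit had CACGTG within 50 bp. These counts are small and were not tested.

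**Figure D4:**
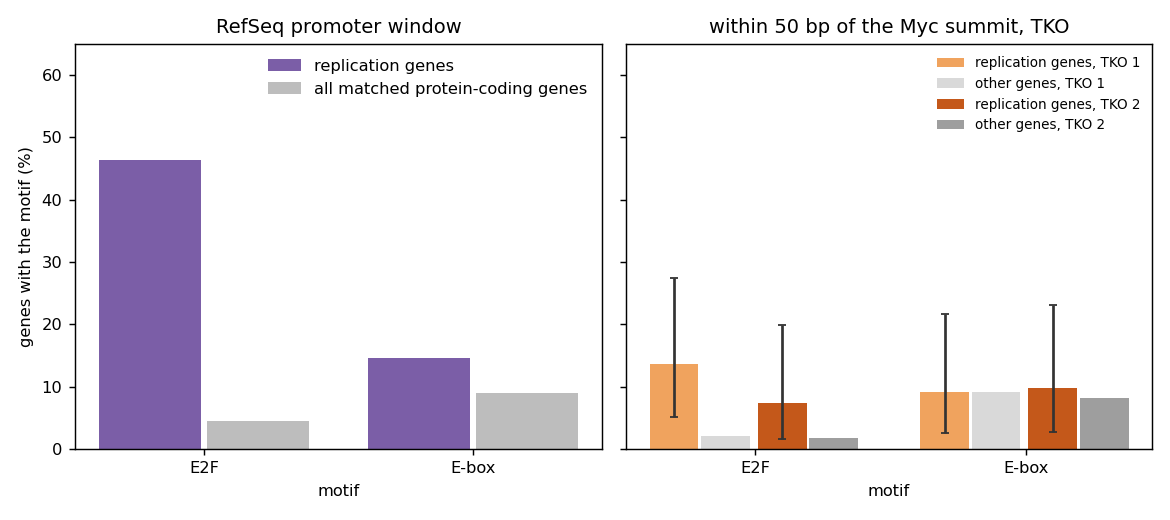
Percentage of genes with an E2F or an E-box (CACGTG) motif (vertical axis), on the left in RefSeq promoters of the replication genes and of all matched genes, and on the right within 50 bp of the Myc summit among bound genes of each TKO library. Error bars are 95% Clopper-Pearson intervals. E2F stands at 46.3% of the replication promoters beside 4.48% of all, and at 13.6% and 7.32% of the summits.

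Shared promoters are common among the replication genes. An opposite-strand protein-coding TSS lay within 1 kb in 19 of 47, or 40.4%, beside 13.7% of all genes. Of these 19, 5 were bound in both parental and 16 in both TKO libraries, and of the 28 others 5 and 25. The strongest promoter peak lay within 1 kb of another gene's TSS for 5, 5, 16 and 14 of the bound replication genes in parental 1, parental 2, TKO 1 and TKO 2. These were 38.5%, 38.5%, 36.4% and 34.1%, beside 31.5%, 31.7%, 24.3% and 24.7% of the other bound genes. Such peaks cannot be assigned to 1 of the genes.

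The other genes of the pathway, 39 regulators and accessory factors of replication, were also bound mainly in TKO cells. Of these, 7, 5, 32 and 33 had a promoter peak in parental 1, parental 2, TKO 1 and TKO 2. The shares were 17.9%, 12.8%, 82.1% and 84.6%, beside 12.2%, 12.9%, 49.1% and 49.7% of all genes. Both TKO libraries shared 31, or 79.5%, beside 45.2% of all genes. In both TKO and neither parental library 24 were bound, or 61.5%, beside 29.8% of all genes. With lists of equal length 7, 5, 10 and 8 of the 39 were bound, beside 12.2%, 9.07%, 13.3% and 13.6% of all genes. Both TKO libraries then shared 6, a class not counted over all genes at this length. The 5 bound in all 4 libraries were DNA2, a nuclease of Okazaki fragments, TOP1, a topoisomerase, CHTF8, a subunit of an alternative clamp loader, SUPT16H, a subunit of the histone chaperone FACT, and RIF1, which controls replication timing. The 5 bound in none were RECQL4, CHAF1A, CHAF1B, CDK2 and RPA4. Each class of 5 made up 12.8%, beside 9.32% of all genes bound in all 4 libraries and 46.3% bound in none.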

How the data were processed

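The authors aligned single-end reads of 50 cycles to hg19 and called peaks in each library separately, against input, and the submitters' processing notes name Novoalign 3.08.02 and MACS2 2.1.1.20160309. The handling of duplicate reads is not given in the sources used here. Peak lists of the 4 Myc libraries were analysed, and of the 6 samples the 2 inputs had none here. Each cell type had a single input sample, so local background and the folds built on it are not independent between its 2 libraries. Each deposited list gives a position and summit, the authors' fold (a ratio of summit to local background reads), their −log10 p-value and −log10 q-value, and a deposited score of 10 times the −log10 q-value without decimals. The lowest −log10 q-value was 2.03 to 2.07, so the lists end at a threshold on q.

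Summit and background reads were solved from fold and p-value, and a whole number of reads matched within 0.002 for 100% of peaks in each list. With the scale set 0.9 times too low, the match rate over 500 peaks was 10.6% to 14.0%. Depth assumes a genome of 2700000000 bases. Genome background was the lowest local background of a list, and extension length its narrowest peak. In the parental libraries the reads had been scaled down by the caller.

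Groups came from the sample titles. TSS were those of basic protein-coding transcripts (GENCODE v44 lifted to GRCh37), with a window of 1 kb, and a gene was represented by its peak of highest fold. Motifs were searched within 50 bp of the summit on both strands. The library was the unit of each test, an exact two-sided permutation test. The genes, lists and alternatives were chosen with earlier results of these data known. Values in every library are given for genes bound in all 4, in 3, in 1 TKO or in no library, for the 10 of highest mean TKO percentile among those bound in TKO alone, and for genes with an E-box at the summit. Alternatives were TSS windows of 500 bp and 3 kb, a −log10 q-value or fold of at least 5, lists of equal length, each library left out, TSS of all transcripts, a motif window of 100 bp, other measures of strength and a replicate block. Software was samtools 1.23.1, pysam 0.24.0, pandas 2.3.3, matplotlib 3.10.9, scipy 1.17.1 and numpy 2.4.6 under Python 3.11.15. The steps were tested on simulated data.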

Additional observations from a re-analysis of the deposited data

How the results depend on the processing

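Lists of equal length (3720 peaks) changed most values. The ratio of replication genes bound in TKO over parental turned from 3.27 to 0.875, genes bound in both TKO libraries fell from 41 to 8, those bound in both TKO and neither parental library from 25 to 1, and pathway genes bound in both TKO libraries from 31 to 6. The E-box share of bound genes in TKO rose from 9.42% to 23.6%, and their median percentile fell from 74.4 to 39.5. Fewer peaks enter by construction, and genes shared between libraries were not counted over all genes at this length. With a fold of at least 5, 5 genes rather than 10 were bound in both parental libraries, the E-box share was 10.8% and the percentile 65.3. A TSS window of 500 bp gave 7.23% and 72.1, and a −log10 q-value of at least 5 gave a percentile of 70.7. Ranking by −log10 p-value gave 74.5 and choosing peaks by summit reads, an alternative added after seeing the data, 73.0. A motif window of 100 bp gave an E-box share of 11.8% and an E2F share of 19.9%, from 10.5%. The median TKO over parental summit ratio was 2.30 when summits were scaled by recovered depth alone, from 1.75. What caused these changes was not tested.

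Leaving out each library in turn gave 3.15 to 3.38 for the ratio of bound genes, 41 to 44 genes in both TKO, 10 to 13 in both parental and 25 to 28 in both TKO and neither parental, an E-box share of 9.09% to 9.76%, a percentile of 74.4 to 74.5, a summit ratio of 1.59 to 1.91, 31 to 33 pathway genes and an E2F share of 7.32% to 13.6%. Same-numbered libraries share only a number (correlation of their deviations 0.0722 over 1843 genes). A replicate block gave 3.27 for the ratio of bound genes (exact sign-flip p = 0.5) and leaves the summit ratio at 1.75 by construction. Also added after seeing the data, summits within 200 bp of each other left 7 genes at 1.70, and leaving out genes whose peak lay near another TSS gave 3.79. Of 99 values for comparisons under an alternative, 80 stayed the same, 18 moved and 1 changed direction. Here the ratio of bound genes counts as the same while it stays above 1, a count while it is within 1.5 times, and any other value while it moves by less than 1 SD between libraries. For the 122 values of single genes these counts were 99, 23 and 0. Some values counted as the same could not change. Leaving out a parental library cannot alter values taken from TKO libraries alone, and the block cannot alter the summit ratio. With 2 libraries a group, no exact test could pass 0.05.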

Other observations

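Peaks were also counted beyond the promoters. Counting summits 1 to 10 kb from a TSS, 2, 2, 9 and 7 of the 47 genes had one in parental 1, parental 2, TKO 1 and TKO 2. These were 4.26%, 4.26%, 19.1% and 14.9%, beside 4.34%, 6.68%, 24.8% and 25.1% of all protein-coding genes. CDT1, whose promoter peak was weak in TKO 1, had 3 and 4 such peaks in TKO 1 and TKO 2, the strongest at the 96.3 and 98.1 percentile by fold, and 1 in each parental library, 7708 and 7741 bp from a TSS. MCM2 had 2 in each TKO library, the strongest at the 90.7 and 90.8 percentile, and none in parental libraries. PCNA had 1 in each parental library, 6829 and 6912 bp from a TSS, and CDC6 had 1 in each TKO library at the 86.3 and 65.6 percentile. CDT1 and PCNA thus had a parental peak near the gene although none within 1 kb.

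For the 34 genes without a promoter peak in a given parental library, the nearest summit was usually distant. The median distance was 139201 bp in parental 1 and 149126 bp in parental 2. In 2 genes it was within 10 kb in each library, and in 28 and 25 genes it was beyond 50 kb.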
